A study of Mus musculus with 12 samples.

Results

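The nuclear genes of the respiratory chain and of ATP synthase were followed across 12 mouse samples that carried either of 2 forms of the growth hormone receptor. They were chosen by symbol, as every spot with a single gene symbol that begins with Nduf, Uqcr, Cox4 to Cox8 or Atp5 or names Sdha to Sdhd, Cycs or Cyc1. This gave 87 genes on 88 spots, of 15081 genes with a single symbol, and 73 of the 87 had a value on every array and were tested among 10762 features. By complex, 26 of 31 genes of complex I were tested, 3 of 4 of complex II, 8 of 9 of complex III, 15 of 17 of complex IV and 13 of 16 of complex V. The other 8 tested members were 5 complex I assembly factors, cytochrome c and 2 spots with pseudogene names. The 14 members not tested had values on 0 to 11 of the 12 arrays. Among them were Ndufs1, a core iron-sulfur subunit of complex I, with 7, and Ndufab1, the acyl carrier protein of complex I, with 3. Ndufa4 is counted with complex IV, where its protein is now placed. The genes of the chain encoded in mitochondrial DNA do not match these symbols and were not analysed here.

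The respiratory chain is a set of protein complexes in the inner mitochondrial membrane. Complex I takes electrons from NADH and complex II takes them from succinate, and both pass them to ubiquinone. Complex III hands them on to cytochrome c, and complex IV passes them to oxygen. Complexes I, III and IV pump protons across the membrane, and complex V, the ATP synthase, lets them flow back to make ATP. Most subunits are encoded in the nucleus, and in many tissues their transcripts vary together with the mitochondrial content of the cells.

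Total RNA of each sample was labelled in the Cy3 channel and hybridised to a spotted array together with embryonic reference RNA in the Cy5 channel. The samples fell into the groups NLS 0GH, WT 0GH, NLS 1GH and WT 1GH, with 3 arrays each, lettered b, c and d. NLS, the usual short form of nuclear localization signal, and WT (wild type) are the receptor forms, in a series titled for the nuclear growth hormone receptor. A 0 or a 1 precedes GH in the titles without a unit, and the labels speak of a time course. All 12 samples list a treatment with 100 ng/ml human growth hormone, so the numbers are not read as hours or as untreated and treated. Every title also carries a 10 that the labels do not explain. The labels name neither the cells nor the vector that carries the receptor, and do not say whether the letters are separate cultures, so p-values cover only the spread among these arrays.

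A level is the log2 ratio of sample over reference minus the median of the tested features on that array, and a difference is a difference of such levels. The numerator is not stated in the labels. The sign was turned because 39 of 42 genes of embryonic tissue lay on the side taken as the reference, which makes the direction likely but not certain, and the opposite reading would turn every sign below. Between 14.5% and 30.8% of spots per array had no value, and 3 arrays per group limit the precision. The spread between arrays of a group had a median SD of 0.68 over the 73 members, against 1.0 over all features, and ran from 0.21 for Cox8c to 3.73 for Cox4i2. B lymphoid markers had a median level of 1.10, with 5 of 6 above the array median. The 7 hepatocyte and 6 fibroblast markers had medians of -4.67 and -2.50 and none above it. Apoa1 of the hepatocyte list and Col1a1 and Col3a1 of the fibroblast list are among the embryonic tissue genes that set the sign. The low levels of both lists are therefore no independent reading of the cells. The per-array medians of the B lymphoid list ran from 0.18 to 2.58 in NLS 0GH and from 0.04 to 2.81 in WT 0GH, and from 0.44 to 3.66 in NLS 1GH and from -0.05 to 2.79 in WT 1GH, so the receptor groups overlapped. The list of erythroid and megakaryocyte markers had a median level of 1.32, with 3 of 4 tested genes above the array median, and its per-array medians ran from 0.72 to 1.57 in NLS and from 0.47 to 1.69 in WT. The averaged difference between NLS and WT was above 0 for 1 of these 4 genes, with a median of -0.85. Hba-a1, an alpha globin, was below the array median on all 12 arrays and averaged -1.38 with an SE of 0.46 (adjusted p 0.844 by limma, higher in 0 of 6 pairs), and Gata1, an erythroid transcription factor, averaged -0.91 with an SE of 0.44 (higher in 1 of 6 pairs). Itga2b of the same list went the other way, averaging 0.68 with an SE of 0.34 (higher in 4 of 6 pairs). Myeloid markers had a median level of 0.81, with 3 of 5 above the array median. The averaged difference was above 0 for 3 of these 5, with a median of 0.11. Among them Cebpa averaged 2.85 with an SE of 1.06 (adjusted p 0.862 by limma, higher in 6 of 6 pairs), and its 6 WT levels had an SD of 2.33. The part of these marker differences in the results below was not tested.

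Across the chain, NLS samples lay slightly above WT samples, with no member past the test. At 0GH, 53 of 73 members had a higher mean in NLS than in WT, against 49.7% of all tested features. The median difference of the members was 0.30 on the log2 scale, against -0.00 for all features. At 1GH, 49 of 73 were higher in NLS, against 46.8% of all features, with a median of 0.15 for the members and -0.05 for all features. Averaged over both GH numbers, 52 of 73 were higher, against 47.7%, with medians of 0.29 and -0.03. In RNA from whole samples, a lower share of some cells and less RNA per cell cannot be told apart.

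No single feature passed an adjusted p of 0.05 by limma in any of these comparisons, so the called share was 0.0% at 0GH, 0.0% at 1GH and 0.0% on average. At an unadjusted p under 0.05 the fit gave 496 features at 0GH, 376 at 1GH and 567 on average. Among the members, 1 was higher at that level at 0GH, Ndufb7, against 2.16% of all features, and 0 were lower, against 2.45%. At 1GH 1 member was higher, Ndufs4, against 2.03%, and 0 were lower, against 1.47%. In the average 3 were higher, Cyc1, Ndufs3 and Ndufs4, against 2.81%, and 0 were lower, against 2.46%. These shares lie near the background.

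With the letter as a replicate block the counts at an unadjusted p under 0.05 came to 750, 565 and 854 features, and 0 features passed the adjusted threshold. Of the members, 7 were then higher at 0GH (Atp5b, Cyc1, Ndufb10, Ndufb7, Ndufb8, Ndufs3 and Ndufs6), against 3.31% of all features. At 1GH Ndufs4 and Uqcrh were higher, 2 members against 2.97% of features. In the average 8 were higher (Atp5a1, Atp5b, Cyc1, Ndufb10, Ndufs3, Ndufs4, Ndufs6 and Uqcrh), against 4.03%. The lowest adjusted p of a member in the average was 0.531 with the block, by limma, and 0.862 without it.

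Within letters, the members were higher in NLS more often than features at large at 0GH. At 0GH, 31 of 73 members lay higher in NLS than in WT in every letter, against 15.0% of all features, and 1 lay lower in every letter, Cox6a2, against 14.0%. At 1GH, 16 members lay higher in every letter, against 13.8%, and 3 lay lower, Atp5md, Ndufb11 and Ndufv1, against 13.9%. In all 6 pairs of a letter and a GH number, 8 members were higher in NLS, against 3.49% of features, and 0 were lower, against 2.48%. These counts depend on the centring of the arrays. On uncentred values, where the median difference of all features was -0.18 at 0GH and 0.35 at 1GH, 14 members lay higher in every letter at 0GH, against 8.28% of features, and 31 at 1GH, against 26.0%. The members' median lay 0.30 above that of all features at 0GH and 0.20 above it at 1GH. Centring shifts the difference of every feature by the same amount, so these gaps cannot change with it and are no check on it.

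**Figure D1:**
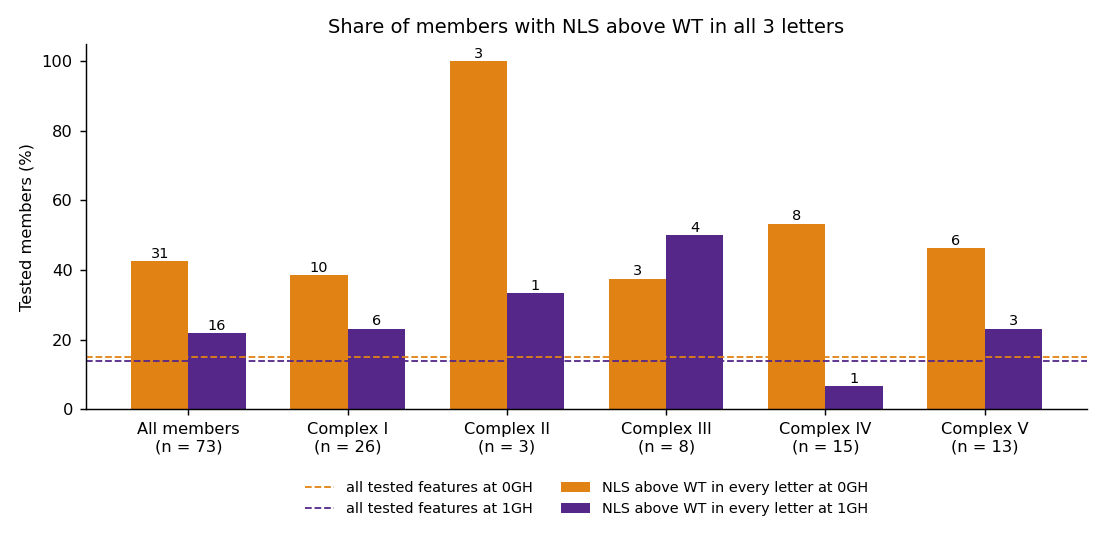
Percentage of tested members (vertical axis) whose NLS level was above the WT level in all 3 letters, for all members and for complexes I to V, at 0GH (left bar of each pair) and 1GH (right bar). Numbers above bars are member counts, dashed lines are the shares among all tested features (15.0% at 0GH and 13.8% at 1GH), and complex IV had 8 such members at 0GH and 1 at 1GH.

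Fewer separations remained when groups were compared without pairing by letter. At 0GH the 3 NLS arrays lay above all 3 WT arrays for 5 members, Cox5a, Cox6b1, Cyc1, Ndufb7 and Ndufs3, against 4.66% of features, and below them for 0, against 4.48%. At 1GH they lay above for 2, Cyc1 and Ndufs4, against 4.48%, and below for 1, Atp5md, against 4.24%. No member had all 6 NLS arrays above all 6 WT arrays (0.567% of features) or below them (0.158%).

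Complex I, the NADH dehydrogenase, had a median difference of 0.22 at 0GH, with 18 of 26 tested subunits higher in NLS, and of 0.05 at 1GH, with 15 of 26 higher. By letter, the median was 0.29, 0.45 and 0.58 in b, c and d at 0GH and 0.19, 0.09 and 0.12 at 1GH. Subunits ranged from -2.07 for Ndufa10 to 1.69 for Ndufb7 at 0GH, and from -0.77 for Ndufb11 to 1.92 for Ndufc2 at 1GH. With single arrays or whole letters left out, the complex I median went as low as 0.07 at 0GH and -0.16 at 1GH.

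Ndufs3, a core subunit of the peripheral arm that carries electrons from NADH, had levels of 0.42, 0.36 and 0.15 in NLS 0GH arrays b, c and d, against -1.08, -0.07 and -0.56 in WT 0GH arrays. At 1GH the levels were -0.71, 0.37 and -0.12 in NLS, against -1.26, -0.82 and -0.31 in WT. The groups did not overlap at 0GH and overlapped at 1GH. The average difference was 0.76 with an SE of 0.30 (adjusted p 0.891 by limma, higher in 6 of 6 pairs).

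Ndufs4, an accessory subunit of the same arm, loss of which causes a Leigh-like encephalopathy in mice, had levels of 0.68, -0.05 and -1.41 in NLS 0GH and of -1.34, -0.82 and -1.83 in WT 0GH. At 1GH they were -0.36, -0.84 and -0.08 in NLS, against -1.89, -0.95 and -3.54 in WT. The WT 1GH array of letter d was the lowest of the 12, and NLS lay above WT on all arrays at 1GH. The difference was 1.07 at 0GH and 1.70 at 1GH, with an SE of 0.71 each, and 1.38 with an SE of 0.50 on average (adjusted p 0.862 by limma, higher in 6 of 6 pairs). Without the WT 1GH array of letter d the average was 1.03, and without letter d the 1GH difference was 0.82.

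Ndufb7, an accessory subunit of the membrane arm, had levels of 0.64, 0.13 and -0.06 in NLS 0GH, against -1.68, -2.16 and -0.51 in WT 0GH. At 1GH the levels were -1.0, -0.05 and -0.26 in NLS, against -1.39, 0.34 and -0.25 in WT. The 0GH groups were apart and the 1GH groups overlapped. The difference was 1.69 at 0GH with an SE of 0.57 (adjusted p 0.951 by limma) and -0.01 at 1GH. The difference between these differences was -1.69 (adjusted p 1.0 by limma), so a dependence on the GH number was not shown for it.

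Ndufs6, which belongs to the peripheral arm, and Ndufa8 and Ndufb10, which belong to the membrane arm, were the other complex I subunits with NLS above WT in all 6 pairs. Ndufs6 had -0.22, 0.75 and 0.74 in NLS 0GH, against -1.18, -0.10 and -0.01 in WT 0GH, and an average difference of 0.57 with an SE of 0.34. Ndufa8 had -0.13, 1.01 and 0.58 in NLS 0GH, against -0.38, 0.21 and -0.26 in WT 0GH, and averaged 0.44 higher with an SE of 0.30. Ndufb10 had -0.62, 0.77 and -0.10 in NLS 0GH, against -0.84, -0.47 and -0.91 in WT 0GH, and averaged 0.62 higher with an SE of 0.34. In each of the 3 genes the letters differed by more than the receptor forms did, and unpaired groups overlapped.

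Other subunits of complex I went against this order. Ndufv1, the core subunit that binds NADH, had a difference of 0.32 at 0GH and of -0.47 at 1GH, with an SE of 0.54 each. Ndufb9, an accessory subunit, averaged -0.60 with an SE of 0.45, and its highest level, 2.58, was on the WT 0GH array of letter b. Ndufa10 and Ndufa9 averaged -0.91 and -0.76, and both rest on the NLS 0GH array of letter b, with -4.44 for Ndufa10 and -4.84 for Ndufa9 there. Ndufc2 had the highest complex I difference at 1GH, where its NLS level of letter b was 3.13 and the other 5 levels lay between -1.85 and -0.23. Of the assembly factors, which help to build complex I without staying in it, 3 of 5 were higher in NLS at each GH number. Ndufaf6 had -0.95 at 1GH with an SE of 0.79.

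**Figure D2:**
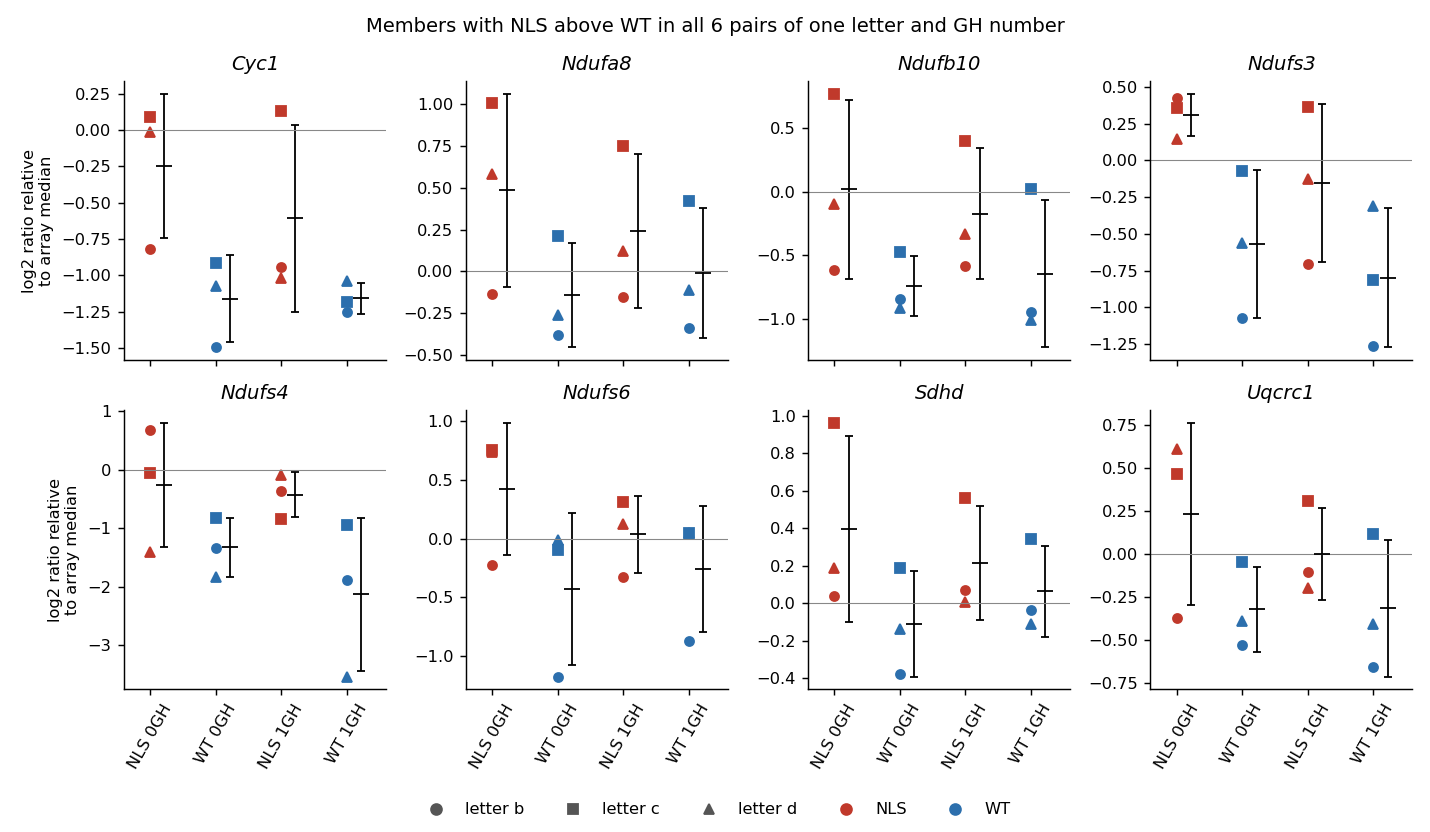
Levels (log2 ratio to the reference minus the array median, vertical axis) of the 8 members whose NLS level was above WT in all 6 pairs of a letter and a GH number, with groups on the horizontal axis. Symbols are arrays by letter, red for NLS and blue for WT, and black bars are the mean and SD of 3 arrays. Only Ndufs3, Cyc1 and Ndufs4 show a GH number at which the NLS and WT symbols do not overlap.

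Complex II, succinate dehydrogenase, was measured by 3 genes, all higher in NLS at 0GH, with a median of 0.50 there and of 0.15 at 1GH. Sdhd, a membrane anchor, had 0.04, 0.96 and 0.19 in NLS 0GH, against -0.38, 0.19 and -0.13 in WT 0GH. At 1GH it had 0.07, 0.56 and 0.01 in NLS, against -0.04, 0.34 and -0.11 in WT, so NLS was higher in every letter and the groups overlapped at both GH numbers. Its average difference was 0.33 with an SE of 0.27. Sdhc, the other anchor, averaged 0.84 higher with an SE of 0.42 (adjusted p 0.899 by limma), with its highest level, 1.40, on the NLS 1GH array of letter b. Sdha, the flavoprotein that oxidises succinate, had 0.30 at 0GH and -0.05 at 1GH, with an SE of 0.42 each. Sdhb, the iron-sulfur subunit, had a value on 9 of 12 arrays and was not tested.

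Complex III, which hands electrons to cytochrome c, had 7 of 8 subunits higher in NLS at 0GH and 8 of 8 at 1GH. Its median difference was 0.25 at 0GH and 0.53 at 1GH, and it was the only complex whose median was larger at 1GH than at 0GH. By letter, the median was 0.39, -0.20 and 0.87 at 0GH and 0.44, 1.08 and 0.28 at 1GH. The per-array median of the complex lay at -0.68, 0.26 and -0.41 in NLS 1GH, against -0.79, -0.71 and -0.85 in WT 1GH. The 3 NLS 1GH medians were all above the 3 WT ones.

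Cyc1, the cytochrome c1 heme protein of complex III, had levels of -0.82, 0.09 and -0.01 in NLS 0GH, against -1.5, -0.92 and -1.07 in WT 0GH. At 1GH it had -0.94, 0.13 and -1.02 in NLS, against -1.25, -1.18 and -1.04 in WT. NLS arrays were all above WT arrays at both GH numbers, but at 1GH the letter d arrays nearly met. The difference was 0.91 at 0GH and 0.55 at 1GH, with an SE of 0.42 each, and 0.73 with an SE of 0.30 on average (adjusted p 0.899 by limma). Without letter c the average was 0.52.

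Uqcrc1, a core protein of complex III, averaged 0.44 higher in NLS with an SE of 0.28. It had -0.37, 0.46 and 0.61 in NLS 0GH, against -0.53, -0.05 and -0.39 in WT 0GH, and the groups overlapped. Uqcrh, the hinge subunit that meets cytochrome c1, had -1.36, -4.0 and -0.69 in NLS 1GH, against -3.16, -5.65 and -3.44 in WT 1GH. The NLS array of letter c lay within the WT range and the other NLS arrays above it, and the 1GH difference was 2.07 with an SE of 1.12. Uqcr11, a small subunit, had the largest member difference of all, 4.96 at 1GH with an SE of 2.52. Its levels there were -4.15, 6.07 and -0.31 in NLS, against -6.99, -5.62 and -0.65 in WT, a spread in both groups as wide as the difference, and without letter c the difference was 1.59.

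Cycs, the soluble electron carrier between complexes III and IV, had 0.27, 0.30 and -0.71 in NLS 0GH, against 1.78, -0.39 and 1.38 in WT 0GH. At 1GH it had -0.34, 0.50 and -0.02 in NLS, against 0.48, 0.03 and -1.36 in WT. The groups overlapped at both GH numbers, and the difference was -0.97 at 0GH and 0.33 at 1GH with an SE of 0.67 each.

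Complex IV, cytochrome c oxidase, had 11 of 15 genes higher in NLS at 0GH, with a median of 0.29, and 7 of 15 at 1GH, with a median of -0.00. For the 10 subunits that are not tissue isoforms the counts were 9 of 10 at 0GH, with a median of 0.34, and 5 of 10 at 1GH, with a median of -0.00. At 1GH these 10 differences lay between -0.29 for Cox6b1 and 0.15 for Cox7a2. Their median by letter was 0.52, 0.32 and 0.27 at 0GH and 0.40, -0.17 and -0.14 at 1GH, so the 1GH letters disagreed in sign.

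Cox4i1, the largest nuclear subunit of complex IV, had 0.79 and 0.18 in NLS 0GH letters c and d, against 0.52 and -0.10 in WT 0GH, and a difference of 0.36 at 0GH and -0.04 at 1GH with an SE of 0.46 each. Cox5a had -0.27, 0.44 and 0.08 in NLS 0GH, against -6.60, -0.43 and -0.40 in WT 0GH. Its 0GH difference of 2.56 with an SE of 1.38 rests on the WT array of letter b, and without letter b its average difference was 0.27 in place of 1.35. Cox6b1, the subunit that helps to join the monomers of the enzyme, had 0.34, 1.81 and 0.77 in NLS 0GH, against -0.16, -3.63 and -0.13 in WT 0GH. NLS lay above WT for both genes at 0GH, each with a single very low WT array. At 1GH Cox6b1 had a difference of -0.29.

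**Figure D3:**
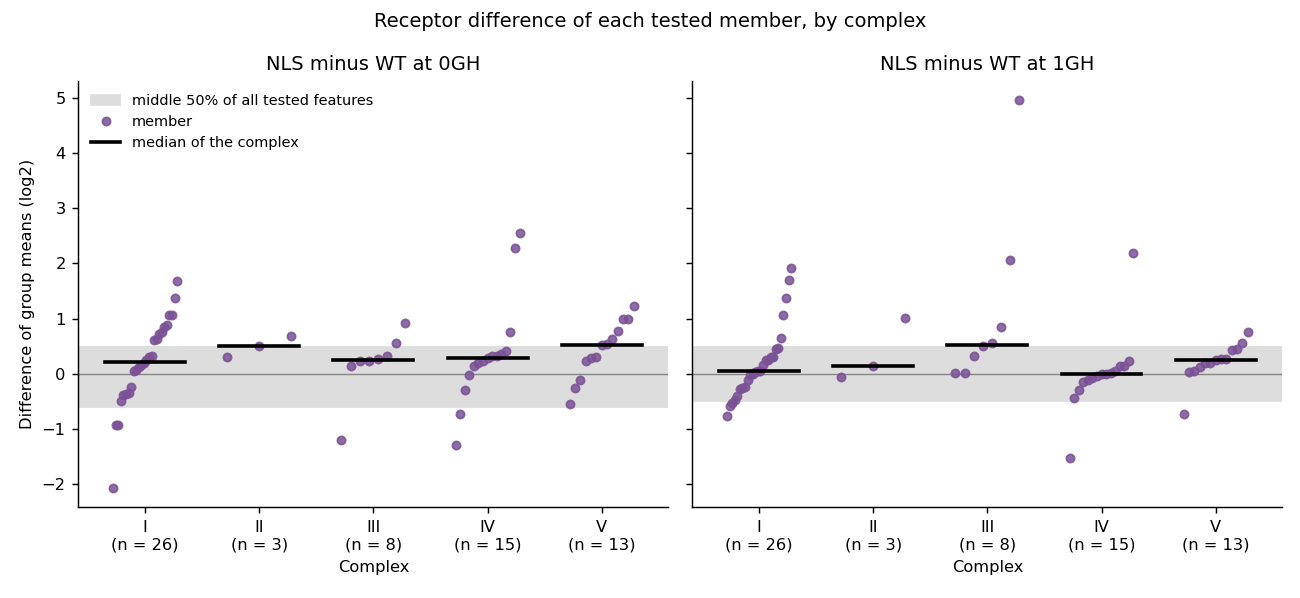
Difference of group means, NLS minus WT, on the log2 scale (vertical axis) for each tested member of complexes I to V, at 0GH (left panel) and 1GH (right panel). Black lines are complex medians and the grey band holds the middle 50% of all tested features. The complex IV line is at 0.29 at 0GH and -0.00 at 1GH, and that of complex III at 0.25 at 0GH and 0.53 at 1GH.

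Complex V, the ATP synthase, had 10 of 13 genes higher in NLS at 0GH, with a median of 0.53, and 12 of 13 at 1GH, with a median of 0.26. The 5 genes of the catalytic F1 head (Atp5a1, Atp5b, Atp5c1, Atp5d and Atp5e) were all higher in NLS at both GH numbers, with medians of 0.78 and 0.26. Their differences ran from 0.29 for Atp5c1 to 1.0 for Atp5e at 0GH and from 0.04 for Atp5e to 0.44 for Atp5a1 at 1GH. By letter, the F1 median was 0.46, 0.57 and 0.88 in b, c and d at 0GH and 0.31, 0.53 and -0.24 at 1GH. The median of all of complex V was 0.46, 0.36 and 0.83 at 0GH and 0.37, 0.27 and -0.03 at 1GH. In letter d at 1GH both medians were therefore lower in NLS. The 8 genes of the stalk and membrane parts had medians of 0.27 at 0GH and 0.24 at 1GH, with 5 of 8 and 7 of 8 higher.

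Atp5b, the catalytic beta subunit, had 0.04, 1.40 and 1.18 in NLS 0GH, against -0.49, 0.57 and -0.43 in WT 0GH. At 1GH it had 0.12, 1.23 and 0.17 in NLS, against -0.71, 0.70 and 0.76 in WT, so letter d was the only pair with NLS below WT. The difference was 0.99 at 0GH and 0.26 at 1GH with an SE of 0.58 each, and the average was 0.62 (adjusted p 0.916 by limma). Atp5a1, the alpha subunit, had -0.16, 0.84 and 0.60 in NLS 0GH, against -0.62, -0.00 and -0.44 in WT 0GH, with an average difference of 0.61 and an SE of 0.34. Both genes were higher in NLS in 5 of 6 pairs, and their groups overlapped.

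Atp5md, a small membrane subunit, went the other way at 1GH, with -1.25, 0.38 and 0.16 in NLS, against 0.38, 0.65 and 0.42 in WT. All NLS arrays were below all WT arrays there, although NLS letter c and WT letter b nearly met. The difference was -0.72 with an SE of 0.44 (adjusted p 0.999 by limma). This separation stands in the mean of its 2 spots and on neither alone. On the first the NLS 1GH levels were -1.98, 1.15 and 0.44, against 0.93, 0.85 and 1.11 in WT, with letter c higher in NLS. On the second they were -0.52, -0.40 and -0.12, against -0.17, 0.45 and -0.27 in WT, with letter d higher in NLS. Atp5g1 and Atp5g2, which encode the same c ring protein, averaged -0.03 and -0.06, and a single array of Atp5g2 reached 5.09 in WT 0GH. Atp5k and Atp5l had a value on 0 and 1 arrays and were not tested.

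The isoforms of complex IV that are made mainly in striated muscle lay low in all groups. Cox7a1, the heart and muscle form, had levels between -8.41 and -2.54 over the 12 arrays, against -0.63 to 0.79 for Cox7a2, its widely expressed partner. Cox6a2 and Cox8b, also heart and muscle forms, averaged -1.51 and -1.59, against 0.41 for Cox6a1 and 0.04 for Cox8a. A level is set against the embryonic reference, so it shows less of an isoform than that reference has, and levels of different genes are not amounts of transcript. Muscle markers lay low as well, with Myl1, Des, Myog, Tnni1 and Ckm below the array median on all 12 arrays and Tnnt1 on 11 of 12, while Actc1 was above it on 8. Cox7a1 averaged -1.41 between NLS and WT with an SE of 0.89 and Cox6a2 averaged -0.44 with an SE of 0.31, lower in NLS in 5 of 6 pairs. Cox4i2, the lung form, ran from -6.06 to 6.23 over the arrays and supports no statement on the receptor forms.

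**Figure D4:**
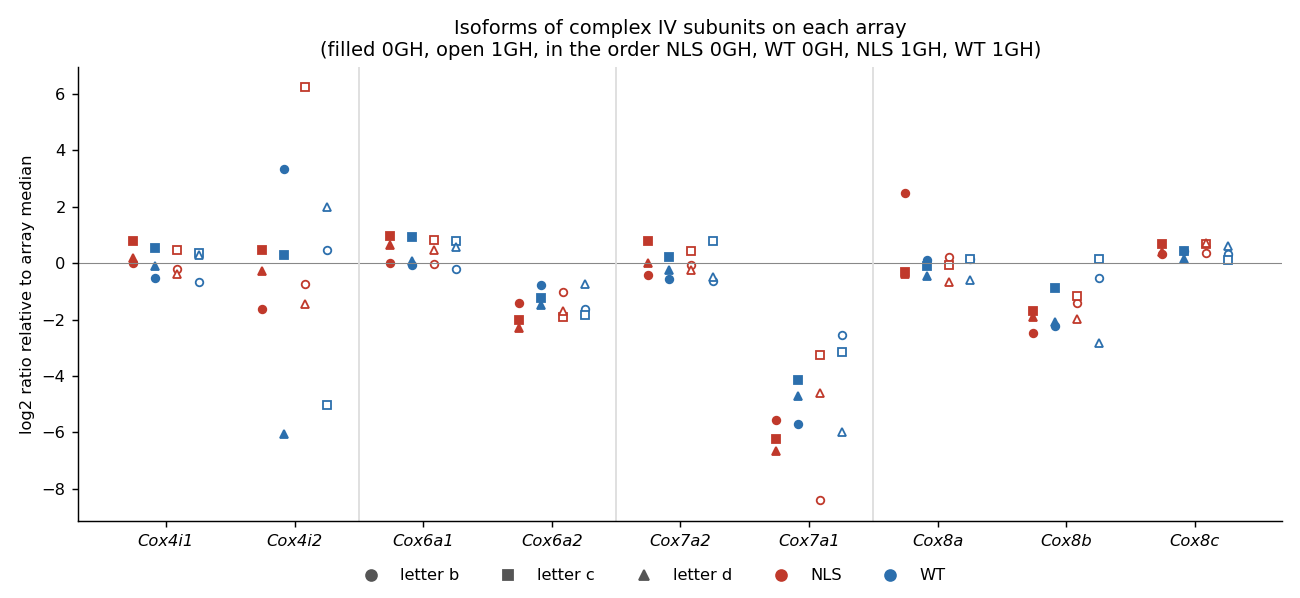
Levels (log2 ratio to the reference minus the array median, vertical axis) of the isoforms of 4 complex IV subunits on each array, red for NLS and blue for WT, filled for 0GH and open for 1GH. Cox7a1 lay between -8.41 and -2.54 on all arrays and Cox4i2 was scattered from -6.06 to 6.23.

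The members' median level differed more between letters than between receptor forms. Averaged over groups, 50 of 73 members were lowest in letter b, against 30.2% of all features, and 49 of 73 were highest in letter c, against 27.8%. The medians of the members' letter means were -0.48 in b, 0.20 in c and -0.16 in d, against 0.06, -0.02 and 0.00 for all features. Samples of a letter share the red dye incorporation given in the labels, so a letter also stands for a labelling of the reference. The part of that labelling in the letter difference was not tested. Without letter b, 55 of 73 members were higher in NLS at 0GH, against 51.4% of features, and 38 of 73 at 1GH, against 47.6%, which is near the background. With green dye incorporation of each sample as a covariate, 53 were higher at 0GH, against 50.0% of features. At 1GH 33 were then higher, against 49.0% of features, and the members' median differed from that of all features by -0.01, in place of 0.20 without the covariate, so the 1GH excess was not present in that fit.

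**Figure D5:**
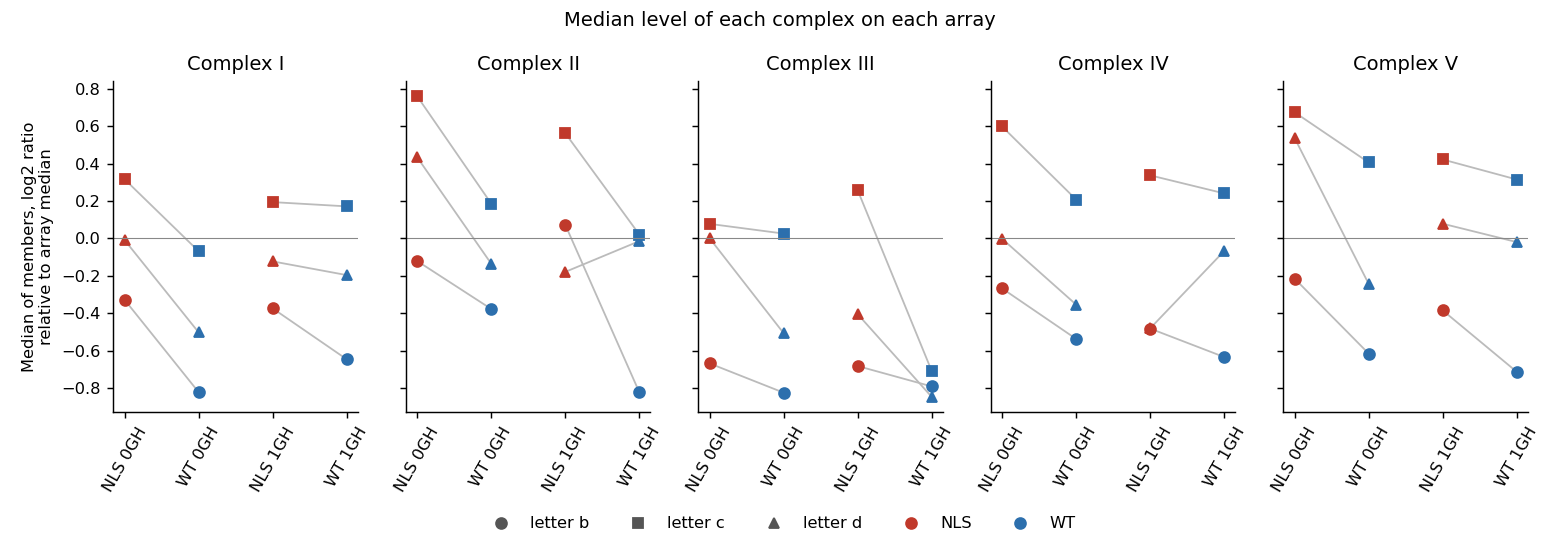
Median level of the tested members of each complex (log2 ratio to the reference minus the array median, vertical axis) on each of the 12 arrays, red for NLS and blue for WT, with symbols for letters and grey lines joining NLS to WT of a letter. Letter b (circles) is low and letter c (squares) high in most panels, and at 0GH every grey line falls from NLS to WT.

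The receptor difference was also compared between the GH numbers. The difference at 1GH minus that at 0GH was above 0 for 28 of 73 members, against 47.3% of features, with a median of -0.20. No feature passed the adjusted threshold by limma (0.0%), and 0 members had an unadjusted p under 0.05, against 2.42% of features. Taken by receptor form, 1GH minus 0GH was above 0 for 24 of 73 members in NLS, against 47.3% of features, and for 45 of 73 in WT, against 52.5%. Neither comparison had a feature past the threshold (0.0% in NLS and 0.0% in WT), and 0 members had an unadjusted p under 0.05 in either, against 2.92% and 2.69% of features. With the letter as a replicate block, Uqcrh reached an unadjusted p under 0.05 in the difference between the receptor differences, as 1 member against 3.71% of features, and in WT, where it was lower at 1GH, against 3.73%. Ndufb5 did in NLS, as 1 member against 4.37%. The lowest adjusted p of a member in these 3 comparisons was 0.950 with the block, by limma. These 3 comparisons share their arrays with those above and add no independent count.

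Ndufb5, an accessory subunit, had a positive 1GH minus 0GH in NLS in every letter, of 3.38, 0.67 and 2.43 in b, c and d, as did Cox6a2, Ndufaf5 and Uqcrb with smaller values. Atp5e had -4.59, -0.35 and -0.31 in NLS, so letter b carried most of that difference. Members that also fell in NLS in every letter include Atp5g2 (-0.72, -0.84 and -0.74), Cox4i1 (-0.23, -0.33 and -0.55), Cox6a1, Ndufs5-ps, Ndufb7, Atp5md and Ndufs6. In WT, Ndufa13 had 0.35, 0.57 and 0.95, higher at 1GH in every letter, and Atp5md 0.24, 0.42 and 0.34. Ndufa9, Ndufb7, Cox5a, Ndufv1, Ndufs6 and Sdhd also rose in every letter in WT, while Ndufc2, Atp5e, Ndufs4, Ndufb9 and Uqcrh fell in every letter. These lists for NLS and WT do not name every such member. The share of all features with the same sign in every letter was not counted for these comparisons.

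Promoters are shown because regulators of the chain are known by the sites they bind there, and because NLS lay above WT in all 6 pairs for the 8 members named above. NRF1, GABPA and YY1 are transcription factors with known sites in many promoters of the chain. RefSeq promoter windows on GRCm38.p6, from 250 bases before to 50 after a start, were matched to 69 of the 87 members, in 74 windows. The stretches below cover the 150 bases before the start of 4 of the 8 genes, read on the strand of the gene, with motif letters in capitals. They lie at chr2:36049339-36049488 (minus strand) for Ndufa8, chr2:90904722-90904871 (minus strand) for Ndufs3, chr9:50603850-50603999 (minus strand) for Sdhd and chr17:24724424-24724573 (minus strand) for Ndufb10, which has none of the motifs.
Ndufa8: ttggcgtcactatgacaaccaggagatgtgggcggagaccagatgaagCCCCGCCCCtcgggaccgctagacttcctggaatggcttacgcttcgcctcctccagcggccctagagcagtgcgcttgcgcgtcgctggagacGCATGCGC
Ndufs3: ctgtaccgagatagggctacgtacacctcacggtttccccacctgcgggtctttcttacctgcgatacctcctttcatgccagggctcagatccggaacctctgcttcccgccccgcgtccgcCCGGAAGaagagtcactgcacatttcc
Sdhd: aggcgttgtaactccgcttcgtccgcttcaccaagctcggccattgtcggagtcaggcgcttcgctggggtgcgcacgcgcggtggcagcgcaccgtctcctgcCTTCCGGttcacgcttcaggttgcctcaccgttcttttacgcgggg
Ndufb10: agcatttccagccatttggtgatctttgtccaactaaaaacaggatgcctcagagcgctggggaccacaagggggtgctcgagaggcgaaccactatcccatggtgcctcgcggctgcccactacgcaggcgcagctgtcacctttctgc

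The motifs searched on both strands were GCGCATGC for NRF1, CCGGAAG for GABPA and other ETS factors, AAGATGGC for YY1 and GGGGCGGGG for SP1, and NRF1 matches on opposite strands can overlap. The NRF1 motif stood in 14.9% of the member windows (11 of 74), against 2.71% of all 32851 windows and 4.12% of the 14451 windows of genes on the array. The ETS motif stood in 23.0% of member windows, against 8.86% of all and 13.0% of those on the array. YY1 stood in 14.9% of member windows, against 2.75% and 3.57%. Of its 11 windows 7 belonged to complex I, which had 30 of the 74 member windows. SP1 stood in 14.9%, against 11.4% and 17.1%. Of the 8 genes, 7 had a window and 6 of these held a motif, where 47.3% of member windows, 32.1% of windows of genes on the array and 22.3% of all windows held any of the 4. They include Ndufa8 at position -8 for NRF1, Ndufs3 at -27 and Sdhd at -46 for ETS, counted from the start of transcription. Ndufs4, Ndufs6 and Uqcrc1 had theirs after the start, at 36 and 34 for YY1 and at 31 for NRF1. A match is a match of letters and shows no binding in these cells.

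Lists of genes around the chain were read in the averaged comparison, where 47.7% of all features were higher in NLS. Of the assembly factors, 16 of 23 tested were higher in NLS, with a median of 0.32, and of the protein import genes 14 of 19, with a median of 0.27. Of the genes that feed electrons into ubiquinone or make it, 6 of 7 were higher, with a median of 0.34. The tricarboxylic acid cycle had 6 of 12 higher, with a median of -0.01, the inner membrane carriers 6 of 9, with a median of 0.09, and the nuclear regulators 4 of 6, with a median of 0.18. None of these genes passed the adjusted threshold by limma, and at an unadjusted p under 0.05 6 of the 76 genes tested in the 6 lists were higher, against 2.81% of all features, and 1 was lower, against 2.46%.

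Single genes in these lists differed by more than most members. Idh3a, a subunit of the isocitrate dehydrogenase of the cycle, averaged 0.15 in NLS and -1.29 in WT (SD 0.28 and 0.56, n = 6 each), a difference of 1.45 with an SE of 0.32 (adjusted p 0.794 by limma, higher in 6 of 6 pairs). Uqcc2, an assembly factor of complex III, averaged 0.65 in NLS and -0.39 in WT, a difference of 1.04 with an SE of 0.29. Hspa9, the mitochondrial HSP70 chaperone that pulls proteins in during import, averaged 0.86 in NLS and 0.04 in WT, a difference of 0.82 with an SE of 0.26. Uqcc2 and Hspa9 were higher in NLS in 6 of 6 pairs, and so were Cox16, by 0.68, and Coq2, by 1.54. The Coq2 value rests partly on the NLS 1GH array of letter d, without which it was 0.95. Pprc1, a coactivator related to PGC-1alpha, differed by 4.38 with an SE of 1.46, and its WT levels had an SD of 3.55. Slc25a10, the dicarboxylate carrier, and Cs, citrate synthase, went the other way, by -0.97 with an SE of 0.31 and by -0.49 with an SE of 0.31. Without the NLS 1GH array of letter c the Cs value was -0.31. The import genes Timm17b and Timm10 were lower by more, at -1.63 with an SE of 0.97 and -1.39 with an SE of 1.07. The assembly factor Timmdc1 averaged -1.51 with an SE of 0.92. Most genes of their lists went up, 14 of 19 for import and 16 of 23 for assembly.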

How the data were processed

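Per the labels, sample RNA was in the Cy3 channel and embryonic reference RNA in the Cy5 channel. The deposited values are read as log2 ratios, with the base inferred from their range of -14.6 to 18.2. Per the series text, the authors fitted a Lowess curve over 50% of the data and used 200 in place of lower control values. The scanner, the background method and the numerator are each not given in the sources used here. Here 902 control spots were left out, values were multiplied by -1, spots of a gene were averaged, and features with a value on all 12 arrays were centred on their array median. Groups were fitted together with limma 3.58.1 in R 4.3.3 (lmFit and eBayes, two-sided, Benjamini-Hochberg over 10762 features, threshold 0.05). The code was tested on simulated data.

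The members and lists were chosen with earlier results of these data known. Named members are a fixed core of each complex, those with the smallest p in each comparison and direction, and isoform pairs. Some members with the same sign in every letter are named too, chosen after their values were seen. Letters pair the samples because the labels give the arrays of a letter the same red dye incorporation. Deviations from group means correlated at 0.04 to 0.26 between arrays of a letter and at -0.19 to 0.07 between arrays that differ in letter and group. Between arrays of a group, whose mean was taken off, they correlated at -0.66 to -0.18. Alternatives were a replicate block, centring, quantile normalization, filters, a robust prior, a dye covariate and leaving out arrays or letters, and the closing section gives their effect.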

Additional observations from a re-analysis of the deposited data

Results flagged for a closer look

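A chosen part of the members, and the medians of member groups, were scanned for letters that moved in opposite directions in NLS and WT. In 6 of these results every letter did so when 1GH was set against 0GH. Other members were not scanned, and Ndufs6 and Cox6c among them moved this way too. The share of all features that did so was not counted. For Ndufb7, an accessory subunit of complex I, 1GH minus 0GH was -1.64, -0.18 and -0.20 in NLS for letters b, c and d and 0.29, 2.50 and 0.26 in WT, a difference of -1.69 between the receptor forms. Letter b in NLS and letter c in WT carried most of it. For Atp5md it was -1.29, -0.21 and -0.38 in NLS and 0.24, 0.42 and 0.34 in WT, a difference of -0.96. This holds for the mean of its 2 spots and not for the second spot, where WT letter d had -0.02 at 0GH and -0.27 at 1GH. The limma test of these differences gave an adjusted p of 1.0 for both genes. For the median of the complex I members, 1GH minus 0GH was -0.01, -0.17 and -0.29 in NLS and 0.06, 0.25 and 0.22 in WT, and the median of their differences was -0.21. For the median of all 73 members it was -0.02, -0.15 and -0.24 in NLS and 0.01, 0.17 and 0.21 in WT, with a median of -0.20, and the letter b values are near 0. For the complex I accessory subunits it was -0.01, -0.18 and -0.23 in NLS and 0.06, 0.24 and 0.21 in WT, with a median of -0.080, and for the stalk and membrane genes of complex V -0.16, -0.083 and -0.33 in NLS and 0.14, 0.053 and 0.25 in WT, with a median of -0.0050. The 4 groups of members share genes. All tested features had 0.090, -0.038 and -0.077 in NLS and 0.047, 0.0076 and 0.12 in WT, with a median of -0.063, so letters c and d were of opposite sign there too. The differences of the medians were not tested.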

How the results depend on the processing

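Under 25 alternatives for each of the 6 comparisons, 0 features passed the adjusted threshold by limma, while the count at an unadjusted p under 0.05 ran from 239 to 794 at 0GH, from 234 to 715 at 1GH and from 256 to 873 in the average. The replicate block, for paired letters, left the differences as they were and gave 750, 565 and 854 such features, against 496, 376 and 567. Without centring, which shifts all features alike, with or without the replicate block, complex I stood at 0.037 at 0GH, 0.45 at 1GH and 0.34 in the average. Complex II then stood at 0.32 at 0GH and 0.55 at 1GH, and complex IV at 0.11, 0.39 and 0.27. Complex V stood at 0.65 at 1GH and 0.51 in the average. Members higher in every letter then numbered 14 at 0GH and 31 at 1GH, and over letters c and d alone, an alternative chosen after seeing the data like the uncentred count, 16 were higher at both GH numbers, against 9.24% of features (8 and 3.49% over 3 letters). The averages of 3 genes turned sign without centring, by the shift alone: Ndufv1 to 0.035, Atp5g1 to 0.077 and Atp5g2 to 0.052. With green dye incorporation as a covariate, complex IV stood at 0.21 at 0GH, -0.19 at 1GH and 0.00660 in the average, complex I at -0.042 and complex V at -0.071 at 1GH, and in the average complex III at 0.35 and complex V at 0.22. Cox4i2 turned to -0.89 and Cox6a1 to -0.031 with that covariate. Quantile normalization put complex I at 0.13 at 1GH. Without the outer 5% of ratios complex I averaged 0.14, Ndufa9 turned to 0.070, Cox4i2 to -1.27 and Atp5g2 to 0.93. The causes were not tested. For the genes outside the chain whose averaged difference is given above, leaving out 1 array at a time was also chosen after seeing the data. It left the sign of each of these differences as it was. Other genes of the lists did turn sign, such as Actc1 (-0.34 to 1.09) and Etfa (-0.63 to 0.047). With arrays or letters left out, the complex I median lay between 0.071 and 0.59 at 0GH, -0.16 and 0.29 at 1GH, and 0.068 and 0.34 in the average. Complex II lay between 0.37 and 0.68 at 0GH, and complex III between 0.32 and 0.65 in the average. Complex IV lay between 0.018 and 0.54 at 0GH, -0.25 and 0.22 at 1GH, and -0.0065 and 0.30 in the average. Complex V lay between 0.23 and 0.78 at 0GH, -0.057 and 0.54 at 1GH, and 0.24 and 0.57 in the average. Averages that turned sign in this way were Ndufv1 (-0.26 to 0.16), Sdha (-0.031 to 0.22), Cycs (-0.77 to 0.10), Cox4i1 (-0.0065 to 0.33), Ndufa9 (-1.28 to 0.070), Cox4i2 (-0.96 to 3.43), Cox6a1 (-0.0092 to 0.29), Cox8a (-0.13 to 0.61), Atp5g1 (-0.20 to 0.23) and Atp5g2 (-0.88 to 1.43), and the 1GH difference of Cox7a1 (-2.99 to 0.65). The remaining 1720 of 1848 planned values were classed as unchanged. For genes this meant the same direction, for complex medians a shift within the spread over letters, and for counts a limited ratio to the main count. Counts of features past the threshold, 0 in every fit, are among them. The rule for counts is wide. It passed the 33 of 73 members higher at 1GH with the green dye covariate, against 49 in the main fit. Arrays of 3 per group and spots without a value limit what could be detected.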
